A study of Mus musculus with 15 samples.

Results

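The 10 genes described here are made by secretory cells of the airway lining and were followed through bleomycin lung injury in whole mouse lung: Scgb1a1, Scgb3a1, Scgb3a2, Cyp2f2, Muc5b, Muc5ac, Bpifa1, Bpifb1, Agr2 and Spdef. They were taken by symbol as a named set, and all 10 were found among the 33340 genes of the deposited count table, through their Ensembl identifiers and the GENCODE M21 annotation. The 15 RNA-seq libraries came from male C57BL/6 mice of 10 to 12 weeks, with 4 libraries at day 0 and, after intratracheal bleomycin at 5 U/kg, 4 at day 7, 4 at day 14 and 3 at day 21. The day 0 libraries are named as controls in their titles, and no genotype, transgene or second agent is given for any group. Day 0 replicate 4 carries bleomycin in its treatment label and was kept at day 0 by its title. Nothing in the labels says that each library is a separate animal, so the p-values below measure the spread between these libraries. Bleomycin is a DNA-damaging drug that injures the lung epithelium and is followed by scarring, a standard model of pulmonary fibrosis.

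Club cells are the dome-shaped secretory cells of the small airways. They release secretoglobins and surfactant-like proteins, detoxify inhaled chemicals with cytochrome P450 enzymes, and serve as progenitors of the airway lining. Goblet cells, which make the gel-forming mucins, are rare in a healthy mouse lung, and in many injuries they arise from club cells through the transcription factor SPDEF. BPI-fold proteins and Scgb3a1 are secreted mainly in the nose, trachea and large bronchi, where gland and surface secretory cells form the mucus that cilia carry upward. RNA of whole lung mixes all these cells with alveoli, vessels and blood cells, so fewer secretory cells and less RNA per cell cannot be told apart here.

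Promoter sequences are shown for 5 members whose RNA levels are described below, Cyp2f2 because it fell, Agr2 because it rose, and Scgb3a1, Bpifa1 and Bpifb1 because they varied together between libraries. They are RefSeq sequences of the GRCm38.p6 build, read 5′ to 3′ and ending before the annotated transcript start. Capitals mark matches to TGTTTNC, the core of the motif bound by FOXA factors, or to CTCAAG, the core bound by NKX2-1, each searched on both strands. No base belongs to both motifs in these windows.
Cyp2f2, chr7:27119705-27119908, plus strand: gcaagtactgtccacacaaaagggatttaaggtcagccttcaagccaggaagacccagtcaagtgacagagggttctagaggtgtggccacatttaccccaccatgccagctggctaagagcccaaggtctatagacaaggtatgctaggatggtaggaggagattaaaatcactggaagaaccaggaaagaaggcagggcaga
Agr2, chr12:35992675-35992906, plus strand: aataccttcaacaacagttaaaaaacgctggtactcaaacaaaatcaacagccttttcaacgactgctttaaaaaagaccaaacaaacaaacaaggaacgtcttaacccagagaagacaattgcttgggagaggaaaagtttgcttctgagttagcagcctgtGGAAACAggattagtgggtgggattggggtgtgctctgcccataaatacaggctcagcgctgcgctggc
Scgb3a1, chr11:49663345-49663594, plus strand: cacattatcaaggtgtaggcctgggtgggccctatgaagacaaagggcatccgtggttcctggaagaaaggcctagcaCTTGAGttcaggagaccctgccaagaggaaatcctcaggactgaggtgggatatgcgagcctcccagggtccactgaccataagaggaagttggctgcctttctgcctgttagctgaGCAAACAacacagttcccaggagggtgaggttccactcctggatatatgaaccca
Bpifa1, chr2:154142630-154142879, plus strand: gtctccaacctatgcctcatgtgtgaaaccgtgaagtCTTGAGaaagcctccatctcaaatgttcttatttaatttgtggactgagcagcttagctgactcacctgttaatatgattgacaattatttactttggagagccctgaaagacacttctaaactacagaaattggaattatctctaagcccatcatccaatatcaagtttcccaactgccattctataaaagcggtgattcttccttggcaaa
Bpifb1, chr2:154190568-154190817, plus strand: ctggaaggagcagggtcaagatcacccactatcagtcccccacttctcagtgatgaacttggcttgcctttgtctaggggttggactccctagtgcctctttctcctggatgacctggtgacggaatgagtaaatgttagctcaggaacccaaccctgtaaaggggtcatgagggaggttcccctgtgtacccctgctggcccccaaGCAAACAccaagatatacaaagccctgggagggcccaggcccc

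Within 250 bases before the RefSeq start, the FOXA letters were found in 17.8% of 32851 mouse promoters and the NKX2-1 letters in 13.3%. Scgb3a1 held both, with FOXA at -55 to -49 and NKX2-1 at -172 to -167. Bpifb1 held FOXA at -43 to -37, Agr2 held it at -87 to -81, Bpifa1 held NKX2-1 at -213 to -208 and Spdef held NKX2-1 at -111 to -106. Neither was found in the Cyp2f2 window, and TTNNGCAA, a C/EBP core present in 9.56% of promoters, was found in none of the 6 members searched. The second Bpifb1 start in the table held no match. A match of letters is a description and was not tied to binding or to a change in RNA.

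Levels are given as CPM, read counts scaled to library size after adjustment by TMM (trimmed mean of M values). Total counts ran from 15652008 to 18020661 per library, and 17457 genes passed the filter on low counts, the 10 members included. Changes were tested with edgeR's quasi-likelihood test in 1 fit of the 15 libraries, and a gene was called when its fold change was over 1.5 and its p, adjusted by Benjamini-Hochberg over all genes tested, was under 0.05. The share of counts from 16 mitochondrial genes was 2.28% and 2.31% in day 0 replicates 1 and 2 and 4.22% and 4.04% in replicates 3 and 4, and ran from 2.03% to 2.15% at day 7, from 3.74% to 4.14% in 3 day 14 libraries, with replicate 1 lower, and from 2.66% to 4.01% at day 21. Its part in the results was not tested beyond the fits given below. Day 7 replicate 4 and day 21 replicate 1 stood apart from the other libraries of their day in genes of heart muscle and in Scgb3a1, Bpifa1 and Bpifb1, and day 14 replicate 1 in the last 3 alone among these genes, so the calls that rest on them are given with and without them.

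At day 7, Scgb1a1 and Cyp2f2 were lower and Agr2 was higher than at day 0, and the other 7 members were not called. At day 14, 5 members were lower (Scgb1a1, Cyp2f2, Scgb3a2, Muc5b and Spdef) and Agr2 was higher. At day 21, Scgb1a1 and Cyp2f2 were lower and Agr2 was higher. Of all genes tested, 8.78% were called higher and 7.36% lower at day 7, 12.0% higher and 11.2% lower at day 14, and 12.4% higher and 10.1% lower at day 21. The members' median log2 fold change was 0.13 at day 7, -2.10 at day 14 and -0.07 at day 21, while the median over all genes lay between 0.01 and 0.02. Each comparison uses the same 4 day 0 libraries.

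**Figure D1:**
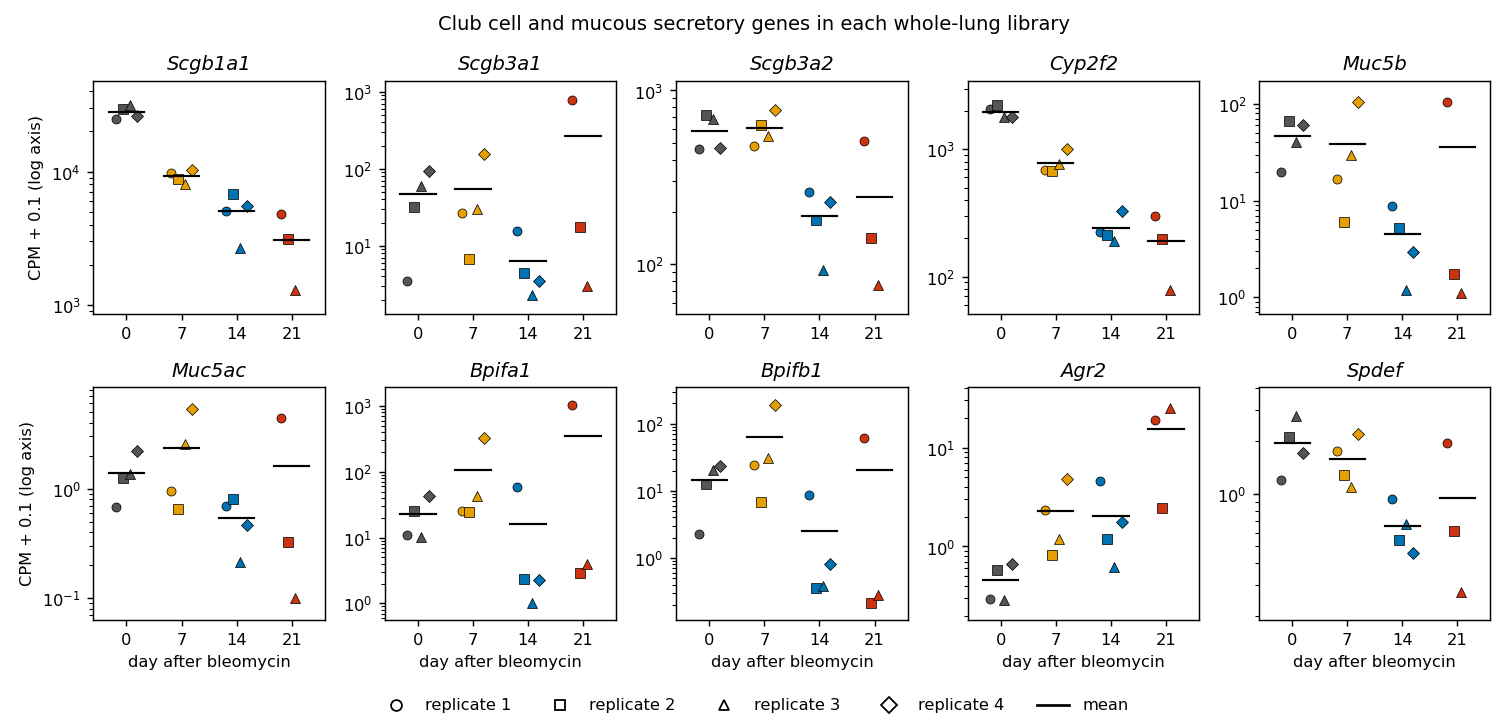
CPM plus 0.1 of the 10 genes in each library (log axis) against day after bleomycin; marker shape gives the replicate and the black bar the day's mean. Scgb1a1 and Cyp2f2 lay below every day 0 library in all 11 later libraries, whereas Bpifa1 ran from 2.79 to 1043 CPM within day 21.

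Scgb1a1 encodes the club cell secretory protein, the most abundant product of these cells (ENSMUSG00000024653, chr19:9083636-9087958, minus strand). At day 0 its level was 24614, 29607, 31256 and 25967 CPM. It was 9723, 8837, 8059 and 10288 CPM at day 7, 5102, 6794, 2683 and 5531 CPM at day 14, and 4804, 3146 and 1306 CPM at day 21. None of the later libraries overlapped day 0, and no day 14 library overlapped day 7. The change from day 0 was -1.59 ± 0.33 on the log2 scale at day 7 (SE, n = 4 and 4, 3.02-fold lower, edgeR adjusted p = 0.00356), -2.47 ± 0.34 at day 14 (n = 4 and 4, 5.54-fold lower, adjusted p = 8.38e-05) and -3.17 ± 0.40 at day 21 (n = 3 and 4, 9.03-fold lower, adjusted p = 4.78e-05). Between later days, Scgb1a1 was lower at day 21 than at day 7 by edgeR (-1.58 ± 0.37, adjusted p = 0.0146), and day 14 against day 7 gave -0.88 ± 0.33 with an adjusted p of 0.112.

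Cyp2f2 is the cytochrome P450 through which club cells metabolise inhaled aromatic compounds (ENSMUSG00000052974, chr7:27119909-27133660). It stood at 2065, 2236, 1790 and 1789 CPM at day 0 and at 693, 677, 769.6 and 1003 CPM at day 7. At day 14 the 4 libraries held 225, 211, 189 and 329 CPM, and at day 21 the 3 libraries held 299.8, 197 and 78.0 CPM. The libraries of day 0, day 7 and day 14 formed 3 ranges that did not overlap, and that of day 21 overlapped day 14. Against day 0 the log2 changes were -1.33 ± 0.30, -3.05 ± 0.32 and -3.36 ± 0.36 at days 7, 14 and 21 (SE, edgeR adjusted p = 0.00531, 6.89e-06 and 1.28e-05), so Cyp2f2 ended 10.3-fold lower. The step from day 7 to day 14 was itself past the threshold by edgeR (-1.72 ± 0.30, adjusted p = 0.00713), as was that from day 7 to day 21 (-2.04 ± 0.34, adjusted p = 0.00284). The predicted gene Gm15883 lies antisense within the Cyp2f2 span, with 9 to 337 counts per library against 1327 to 37005 for Cyp2f2. The strand setting of the counting is not stated, so reads of that overlap cannot be assigned.

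The calls of Scgb1a1 and Cyp2f2 against day 0 held under every alternative run, each library left out in turn included. Scgb1a1 ranged from -1.68 to -1.42 at day 7 over 19 alternatives, from -2.67 to -2.26 at day 14 over 19 and from -3.68 to -2.85 at day 21 over 17. Cyp2f2 ranged from -1.47 to -1.22, from -3.24 to -2.89 and from -3.88 to -3.03 over the same sets. Their calls also stood when only libraries of one mitochondrial share entered (under 2.5%, 4 at day 7 against 2 at day 0; over 3.5%, 3 at day 14 against 2 at day 0).

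Scgb3a2, the secretoglobin made along the small airways (ENSMUSG00000038791), did not follow Scgb1a1 at day 7. Its level was 462, 719, 689 and 468 CPM at day 0 and 479, 635, 546 and 776 CPM at day 7, with a log2 change of 0.06 ± 0.44 (SE, n = 4 and 4, edgeR adjusted p = 0.936). At day 14 it was 261, 180, 92.3 and 227 CPM, below every day 0 library. The day 14 change was -1.62 ± 0.45 (3.07-fold lower, edgeR adjusted p = 0.0123) and kept its call in all 19 alternatives. Against day 7 it was -1.68 ± 0.45 (adjusted p = 0.0363), but that call was lost when day 7 replicate 1, 2, 3 or 4 or day 14 replicate 2, 3 or 4 was left out (adjusted p from 0.0548 to 0.0947) and in the fit that takes the mitochondrial share as covariate (adjusted p = 0.14). At day 21 replicate 1 held 514 CPM, inside the day 0 range, while replicates 2 and 3 held 142 and 75.4 CPM. The day 21 change of -1.26 ± 0.49 did not pass (edgeR adjusted p = 0.0648), and without replicate 1 it was -2.46 ± 0.40 (adjusted p = 0.000626).

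Scaled to the exon length of each gene, the 2 club cell secretoglobins were set against each other. This ratio was chosen after the values were seen and restates their separate levels, so it is no independent evidence of a change. Per 1000 units of Scgb1a1 RPKM (CPM per kilobase of exon), Scgb3a2 gave 10.1, 13.1, 11.9 and 9.75 units at day 0. It gave 26.6, 38.9, 36.6 and 40.8 at day 7, 27.7, 14.4, 18.6 and 22.2 at day 14, and 57.9, 24.4 and 31.2 at day 21. All 11 later libraries lay above the 4 at day 0. The exact two-sided permutation test gave p = 0.0286 at days 7 and 14 and 0.0571 at day 21, the smallest the designs allow, and after adjustment over 6 such tests these were 0.0857, 0.0857 and 0.114, so no day passed. Cyp2f2 per 1000 Scgb1a1 was 16.8 ± 2.64 at day 0 (SD, n = 4) and 20.0 ± 3.11, 12.0 ± 4.05 and 14.5 ± 0.371 at days 7, 14 and 21, with exact permutation p of 0.171, 0.143 and 0.229.

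**Figure D2:**
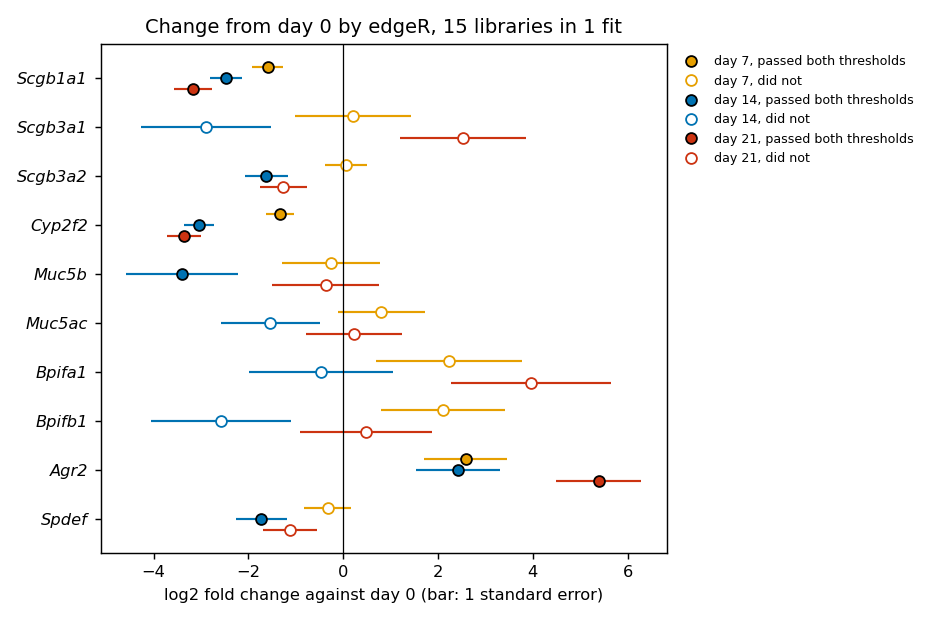
Log2 fold change of each gene against day 0 at days 7, 14 and 21 (points) with 1 standard error (bars), from edgeR; filled points passed both the adjusted p and the fold threshold. Scgb1a1 and Cyp2f2 were called at all 3 days with short bars, and the BPI-fold genes, Scgb3a1 and Muc5ac were called at none.

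Agr2, a protein disulfide isomerase of the endoplasmic reticulum needed to fold mucins, was the only member called higher, in each of the 3 comparisons with day 0 (ENSMUSG00000020581, chr12:35992907-36004087). It was scarce at day 0, with 0.194, 0.483, 0.190 and 0.557 CPM from 3 to 10 counts per library. It rose to 2.26, 0.725, 1.10 and 4.75 CPM at day 7, above every day 0 library, and stood at 4.54, 1.08, 0.514 and 1.69 CPM at day 14, where the lowest library fell within day 0. Day 21 held 19.1, 2.33 and 24.9 CPM, with replicates 1 and 3 high and replicate 2 within the range of day 7.

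The Agr2 changes against day 0 were 2.58 ± 0.88 at day 7 (log2, SE, edgeR adjusted p = 0.0409), 2.41 ± 0.88 at day 14 (adjusted p = 0.0448) and 5.39 ± 0.90 at day 21 (41.9-fold higher, adjusted p = 0.000428). The day 21 call held in all 17 alternatives, with log2 values between 4.82 and 5.86. The calls at days 7 and 14 were weak. Day 7 lost its call in 10 of 19 alternatives. These included each day 0 library left out and day 7 replicates 1 and 4 (adjusted p from 0.0659 to 0.136, the highest without day 7 replicate 4, where the change was 1.89), and the fit that takes the mitochondrial share as covariate (1.88, adjusted p = 0.252). Day 14 lost it in 9 of 18, with each day 0 library and day 14 replicates 1, 2 and 4 left out (adjusted p from 0.0522 to 0.208, the highest without day 14 replicate 1, where the change was 1.55). Within the libraries under 2.5% mitochondrial counts the day 7 adjusted p was 0.064, and within those over 3.5% the day 14 adjusted p was 0.179. Day 21 exceeded day 7 by 2.81 ± 0.75 (edgeR adjusted p = 0.026), a call lost in 7 of 17 alternatives, among them day 7 replicates 1, 2 and 3 and day 21 replicates 1 and 3 left out (adjusted p from 0.0562 to 0.08).

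Muc5b encodes the gel-forming mucin that clears healthy airways, and Muc5ac encodes the mucin induced in goblet cells. Muc5b (ENSMUSG00000066108, chr7:141839070-141873084) had 19.5, 66.0, 40.0 and 60.9 CPM at day 0 and 16.5, 5.97, 29.2 and 104 CPM at day 7. All 4 day 14 libraries were below day 0, at 8.68, 5.16, 1.09 and 2.83 CPM. Day 21 held 106 CPM in replicate 1 and 1.65 and 0.999 CPM in replicates 2 and 3. The day 14 change was -3.39 ± 1.18 (log2, SE, 10.5-fold lower, edgeR adjusted p = 0.0375), and the call was lost when replicate 2, 3 or 4 of day 0 or of day 14 was left out (adjusted p from 0.0506 to 0.0842). At day 21 the change was -0.37 ± 1.13 with all libraries (adjusted p = 0.836) and -5.16 ± 1.18 without replicate 1 (adjusted p = 0.00588).

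Muc5ac (ENSMUSG00000037974, chr7:141788972-141819231) was at low level throughout. It ranged from 0.582 to 2.12 CPM at day 0, 0.558 to 5.17 CPM at day 7, 0.114 to 0.701 CPM at day 14 and 0 to 4.32 CPM at day 21. The 0 was day 21 replicate 3, where a count of 0 allows up to 3 counts, or 0.176 CPM, counting error only. No edgeR comparison with day 0 called it (adjusted p = 0.552, 0.272 and 0.89), and the day 21 change went from 0.23 ± 1.01 to -3.43 ± 1.19 without replicate 1 (adjusted p = 0.0454).

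Spdef is the transcription factor that drives goblet cell differentiation (ENSMUSG00000024215, chr17:27714352-27728955, minus strand). Its levels were 1.10, 1.99, 2.66 and 1.62 CPM at day 0, 1.64, 1.17, 0.988 and 2.08 CPM at day 7 and 0.826, 0.446, 0.571 and 0.362 CPM at day 14. The day 14 libraries lay below those of days 0 and 7, with 6 to 14 counts each. Spdef changed by -1.72 ± 0.54 at day 14 (log2, SE, edgeR adjusted p = 0.022), a call lost without day 0 replicate 3, day 14 replicate 2 or day 14 replicate 4 (adjusted p = 0.057, 0.0555 and 0.0557). Day 21 held 1.85, 0.512 and 0.176 CPM, a change of -1.12 ± 0.57 (adjusted p = 0.15) that was -2.42 ± 0.57 without replicate 1 (adjusted p = 0.0066).

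Without day 0 replicate 3, day 14 replicate 2 or day 14 replicate 4, the count of members called at day 14 fell from 6 to 3, which were Scgb1a1, Cyp2f2 and Scgb3a2. Each other library of days 0 and 14 left out in turn gave 4 or 5. The share of all genes called in these fits is not given here, so these counts have no background.

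Scgb3a1, Bpifa1 and Bpifb1 spread widely between libraries of 1 day. Bpifa1 (also called SPLUNC1; ENSMUSG00000027483, chr2:154142880-154149219) and its neighbour Bpifb1 (ENSMUSG00000027485, chr2:154190818-154220369) encode secreted lipid-binding proteins of airway defence. Bpifa1 had 10.9, 25.4, 10.1 and 43.1 CPM at day 0, 25.2, 24.4, 42.9 and 330 CPM at day 7, 59.6, 2.23, 0.914 and 2.17 CPM at day 14, and 1043, 2.79 and 3.82 CPM at day 21. Day 7 replicate 4, day 14 replicate 1 and day 21 replicate 1 were each far above the others of their day. Bpifb1 had the same 3 libraries on top, with 189, 8.44 and 60.9 CPM against at most 30.3, 0.724 and 0.176 CPM in the other libraries of those days, and ranged from 2.13 to 23.3 CPM at day 0. Scgb3a1 (ENSMUSG00000064057, chr11:49663610-49665118) had 154, 15.3 and 790.2 CPM in them against at most 29.9, 4.40 and 17.2 CPM in the others, and from 3.36 to 92.2 CPM at day 0.

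With all 15 libraries in 1 fit and the filter on low counts, none of these 3 genes was called by edgeR in any of the 6 comparisons. An unadjusted p under 0.05 was reached by Bpifa1 at day 21 against days 0 and 14, by Bpifb1 at day 14 against day 7, and by Scgb3a1 at day 14 against day 7 and at day 21 against day 14. DESeq2 called Bpifb1 between days 14 and 7 and Scgb3a1 between days 21 and 14, as did edgeR with no filter. Against day 0, edgeR also called Scgb3a1 lower at day 14 with no filter (-2.91, adjusted p = 0.0475), with those 2 days alone in the fit (-2.92, adjusted p = 0.0244) and without day 7 replicate 4 and day 21 replicate 1 together (-2.89, adjusted p = 0.0194), Bpifb1 lower at day 14 in the last of these (-2.58, adjusted p = 0.0424), and Bpifa1 higher at day 21 with no filter (3.90, adjusted p = 0.03). Between days 14 and 7, Bpifb1 was also called with those days alone and without day 14 replicate 1, and between days 21 and 7 without day 21 replicate 1, alone or together with day 7 replicate 4. Without day 14 replicate 1 the day 14 changes against day 0 were -3.85 for Scgb3a1, -3.69 for Bpifa1 and -5.11 for Bpifb1 (adjusted p = 0.0944, 0.147 and 0.0676), beside -2.89, -0.47 and -2.58 with it. Bpifa1 changed by 3.96 ± 1.68 at day 21 against day 0 (log2, SE, adjusted p = 0.0886) and by -2.80 ± 1.63 without day 21 replicate 1 (adjusted p = 0.238). Scgb3a1 turned from 2.53 ± 1.34 (adjusted p = 0.172) to -2.25 ± 1.26 (adjusted p = 0.222), and Bpifb1 from 0.48 ± 1.38 (adjusted p = 0.827) to -6.62 ± 2.19 (adjusted p = 0.0396). With day 21 replicate 1 left out, 8 members were called at day 21: Agr2 higher, and Scgb1a1, Cyp2f2, Scgb3a2, Muc5b, Muc5ac, Bpifb1 and Spdef lower. In that fit 9.30% of all genes were called higher and 9.50% lower. Within the libraries over 3.5% mitochondrial counts, which are 3 of day 14 (replicate 1 left out) and 2 of day 0 (replicates 3 and 4), Scgb3a1, Bpifa1 and Bpifb1 were called lower at day 14 (-4.53, -3.93 and -5.68, adjusted p = 0.000245, 0.00449 and 0.000245), as were the 5 members lower in the full fit. In this fit 8.78% of all genes were called higher and 8.87% lower. The 2 day 0 libraries kept there were the highest of that day in Scgb3a1 (60.0 and 92.2 CPM against 3.36 and 31.7), in Bpifb1 (20.4 and 23.3 CPM against 2.13 and 12.4) and in the summed heart muscle genes (264 and 183 CPM against 19.9 and 39.8).

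Markers of other tissues moved with these libraries. Of 7 heart muscle genes (Myh6, Myl7, Myl4, Nppa, Sln, Tnnt2 and Actc1), the summed level was 634 CPM in day 7 replicate 4 and 728 CPM in day 21 replicate 1, with all 7 detected in both. It ran from 19.9 to 264 CPM at day 0, from 25.4 to 53.2 CPM in the other day 7 libraries, from 21.9 to 39.4 CPM at day 14 and was 15.2 and 23.2 CPM in the other day 21 libraries. Day 14 replicate 1, high in Bpifa1, Bpifb1 and Scgb3a1, had 39.4 CPM of these genes. That library also had the lowest mitochondrial share of its day (the others held 3.74% to 4.14%) and the lowest summed level of 8 alveolar type 2 genes (7321 CPM against 17350 to 21447). Day 21 replicate 1 was also the lowest of its day in that sum (4654 CPM against 10111 and 7565). Day 7 replicate 4, at 26906 CPM, lay within the range of the other day 7 libraries (18628 to 27162). The summed level of 12 multiciliated cell genes was highest in the same 3 libraries within their days, at 861 CPM in day 7 replicate 4 against 527 to 633, at 398 CPM in day 14 replicate 1 against 183 to 313, and at 579 CPM in day 21 replicate 1 against 233 and 247. Of 8 airway basal cell genes, the sum was 39.9 CPM in day 21 replicate 1 and at most 10.4 CPM in every other library, and Krt5, the keratin that defines these cells, was at 8.77 CPM there and at most 0.416 CPM elsewhere. Reg3g, an antimicrobial lectin of airway epithelium, was at 78.2 CPM in day 7 replicate 4 and 101 CPM in day 21 replicate 1, against at most 13.7 CPM in the others. Of 8 cartilage genes, Acan, Cnmd, Col2a1 and Matn1 stayed at or below 0.59 CPM in all libraries, and the sum of the 8 ran from 4.12 to 8.69 CPM over the 15 libraries, with 5.11 CPM in day 7 replicate 4 (4.12 to 5.94 in the others of that day) and 7.59 CPM in day 21 replicate 1 (5.01 and 6.99 in the others). Of 5 fat cell genes, day 7 replicate 4 had a sum of 137 CPM, above the 9.42 to 29.0 CPM of replicates 1 to 3 and the 19.8 to 68.6 CPM of day 0. At day 21 the fat cell sum was 3.03, 0.740 and 2.53 CPM in replicates 1, 2 and 3. The part of these differences between libraries in the levels of the members was not tested.

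**Figure D3:**
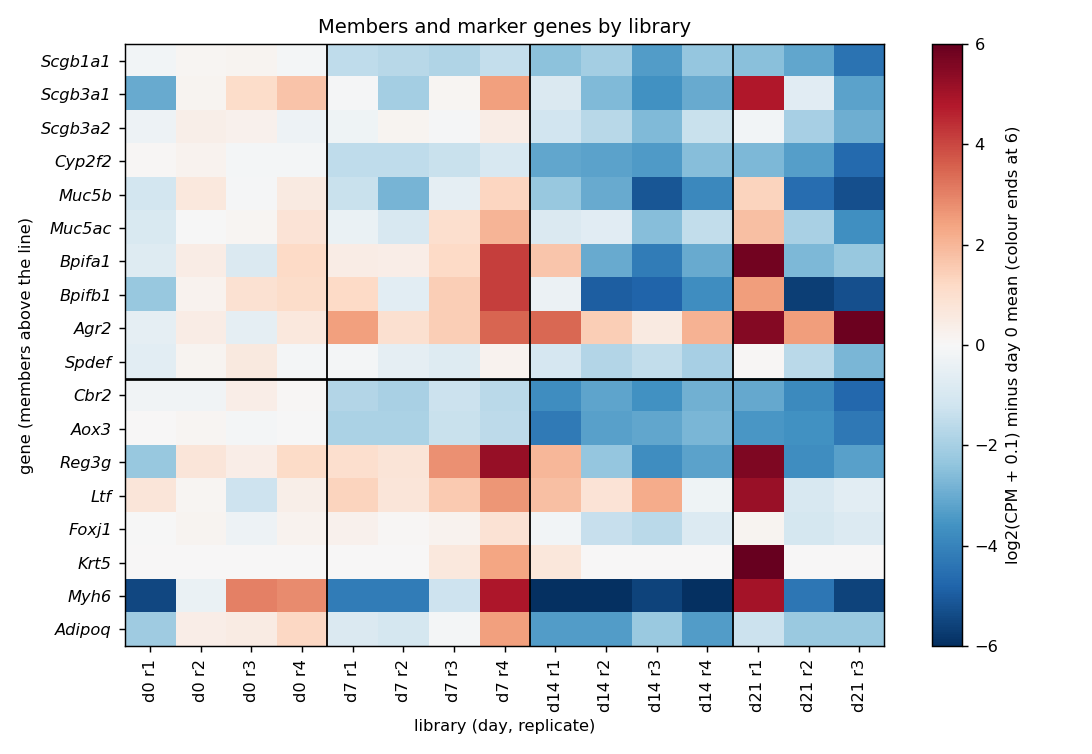
Log2(CPM + 0.1) minus the day 0 mean, by gene (rows) and library (columns, d for day and r for replicate; colour ends at 6 in each direction). The 2 libraries d7 r4 and d21 r1 are red in Scgb3a1, Muc5b, Muc5ac, Bpifa1, Bpifb1, Reg3g, Ltf, Krt5 and Myh6, while Scgb1a1, Cyp2f2, Cbr2 and Aox3 are blue in every library after day 0.

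After each day's mean was subtracted, the deviations of the members across the 15 libraries were compared as a description. Pearson's r on log2 CPM was 0.96 for Muc5b with Muc5ac and 0.94 for Bpifa1 with Bpifb1, and 0.01 for Agr2 with Cyp2f2. Reg3g was among the 3 genes most like Muc5b, Bpifa1 and Bpifb1 (0.94, 0.97 and 0.97) out of 11810 genes compared. Cyp2a5 was most like Muc5b (0.95), A2ml1 most like Bpifa1 (0.97) and Lypd2 most like Muc5ac (0.92). Scgb3a1 and Spdef were nearest to Ubxn11 (0.95) and Dnajb13 (0.92), Scgb3a2 to Calml4 (0.95) and Cyp2f2 to Pon1 (0.94). Agr2 was nearest to Pik3r5 (0.91). The libraries share their depth and cell makeup across genes, so these values carry no p.

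Between genes, levels were compared as RPKM. At day 0 Scgb1a1 had 58532 ± 6499 RPKM (SD, n = 4), Cyp2f2 973 ± 109 and Scgb3a2 664 ± 157, with no overlap between neighbours. Scgb3a1 (78.3 ± 63.7) and Bpifa1 (14.5 ± 10.0) overlapped, as did Bpifb1 (4.02 ± 2.62) and Muc5b (3.11 ± 1.42), and Agr2 (0.276 ± 0.149) overlapped Muc5ac (0.119 ± 0.0590) below Spdef (0.800 ± 0.286). At day 7 Scgb3a2 (692 ± 146) stood above Cyp2f2 (388 ± 74.3) without overlap. By day 21 Scgb1a1 was at 6482 ± 3676 RPKM (n = 3), still above every other member, and Agr2, at rank 9 of the 10 at day 0, had the sixth highest mean, 12.0 ± 9.09. Its 3 day 21 libraries ran from 1.81 to 19.3 RPKM and overlapped those of Scgb3a1 (4.91 to 1321), Bpifa1 (1.81 to 675), Bpifb1 (0.0315 to 16.8) and Muc5b (0.0668 to 7.06), whose highest values were all in day 21 replicate 1, so its place in that order was not separated from these 4.

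Comparing later days with each other, 2 members were called between day 14 and day 7 (Cyp2f2 and Scgb3a2, both lower) beside 6.00% of all genes, and 3 between day 21 and day 7 (Agr2 higher, Scgb1a1 and Cyp2f2 lower) beside 9.54%. Between day 21 and day 14 edgeR called 0 members and 0.00% of all genes, with an unadjusted p under 0.05 in 4 members and 1714 genes. DESeq2 called 1 member there, Scgb3a1 (higher), and limma voom called 0.

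The fall of Scgb1a1 and Cyp2f2 was shared by other genes of club cells. Of 20 listed, 10 were lower and 1 higher at day 7, and 16 lower and 1 higher at both later days, with a median log2 change of -0.73, -2.02 and -1.79. Their summed level went from 11987 to 13410 CPM at day 0 to 6699 to 7466 at day 7, 3305 to 4440 at day 14 and 3029 to 4604 at day 21. Cbr2, the carbonyl reductase of club cells, fell from 4521 ± 969 CPM (SD, n = 4) to 1427 ± 278, 445 ± 121 and 336 ± 182 (log2 -1.66, -3.35 and -3.75, edgeR adjusted p = 0.00123, 3.72e-06 and 7.05e-06). Aox3, an aldehyde oxidase, fell by 1.66, 3.25 and 3.77 on the log2 scale. Lypd2 fell by 1.69, 3.75 and 2.46, and Chad fell by 3.56 and 3.08 at days 14 and 21. Day 21 replicate 1 was the high library of its day in both, with 9.14 CPM of Lypd2 against 1.14 and 0.646 and 6.73 CPM of Chad against 1.48 and 1.06, and without it the day 21 changes were -4.50 and -4.38 (edgeR adjusted p = 1.67e-05 and 0.000205). Krt7, a keratin of simple epithelia in general, was the gene that rose at all 3 days (1.07 at day 14 and 0.76 at day 21).

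**Figure D4:**
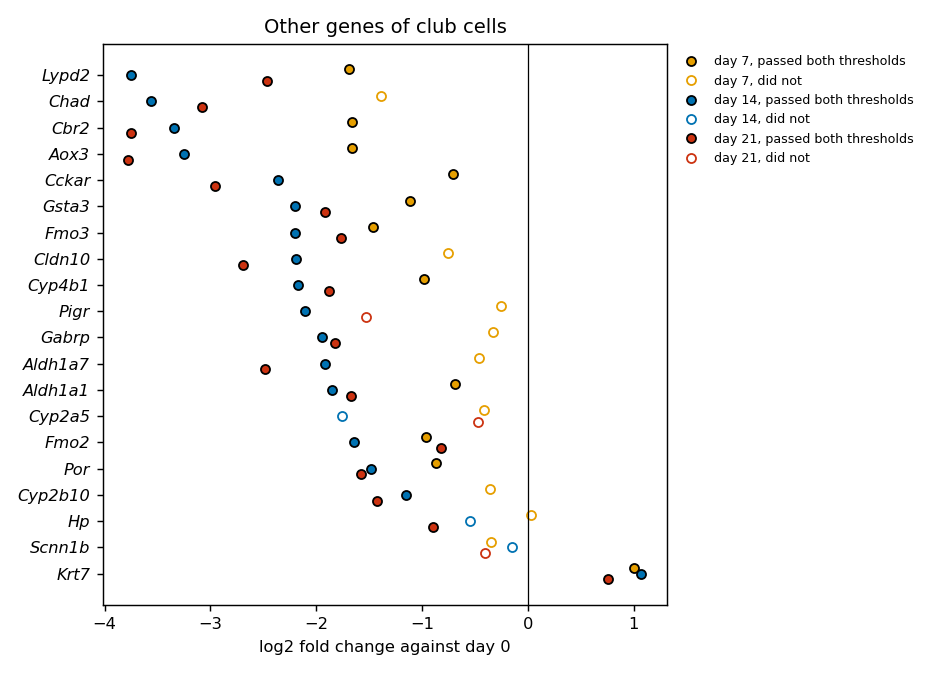
Log2 fold change of 20 other club cell genes against day 0 at days 7, 14 and 21; filled points passed both thresholds. At day 14, 16 genes were lower with filled points and Krt7 alone was higher.

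Genes of mucus production did not move as a block. Of 21 listed, 15 were tested, and 3 were higher and 0 lower at day 7, 1 higher and 4 lower at day 14 and 3 higher and 1 lower at day 21. The day 21 counts were 2 higher and 2 lower by DESeq2, 0 higher and 2 lower by limma voom, and 1 higher (Slc26a4) and 4 lower by edgeR without day 21 replicate 1. At day 7, 1 was higher without day 7 replicate 4. Slc26a4, the anion exchanger pendrin, was called higher at all 3 days (3.35, 2.84 and 1.95 on the log2 scale, edgeR adjusted p = 0.00121, 0.00181 and 0.024). Day 21 held 2.78, 34.1 and 20.7 CPM of Slc26a4, with replicate 1 inside the day 0 range of 2.35 to 9.61 CPM. Gp2 was called at day 21 (5.31, adjusted p = 0.0168) with 23.6 CPM in replicate 1 and at most 0.764 CPM in the others, and without replicate 1 its change was 1.33 (adjusted p = 0.559). Tff2, a trefoil peptide of mucus, fell by 4.69 at day 14 and Muc1, a membrane mucin, fell by 1.25 at day 21.

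The next list held 20 ligands, receptors and transcription factors linked to the control of mucous cells, whether they promote or restrain them. Of these, 17 were tested, and 4 were higher at each day (Ereg, Hbegf, Il4ra and Il13ra1). At days 7, 14 and 21, 1, 3 and 6 were lower. Ereg and Hbegf are ligands of the EGF receptor, and Ereg rose by 4.33, 5.18 and 6.23 on the log2 scale, from 0.299 ± 0.150 CPM (SD, n = 4) to 23.3 ± 16.1 at day 21 (n = 3; 5.48 without replicate 1). At day 14 Ereg was at 25.5 CPM in replicate 1 and at 7.39, 5.31 and 6.87 CPM in the others. Hbegf rose by 1.54, 1.72 and 1.39. Il13, the cytokine that induces goblet cells, had at most 3 counts in any library. Il1b fell by 1.65, 1.35 and 2.02, and Il33 fell by 1.54 at day 21. Il33, an alarmin cytokine, stood at 338, 299, 243 and 256 CPM at day 7 against 133, 161, 123 and 98.4 CPM at day 0, without overlap, but its day 7 change of 1.14 ± 0.45 did not pass (edgeR adjusted p = 0.0766). Day 21 held 17.8, 52.5 and 62.8 CPM of Il33, and without replicate 1 the change was -1.19 ± 0.51 (adjusted p = 0.108). Il13ra1 also lost its call without day 7 replicate 4 at day 7 (0.60, adjusted p = 0.0686) and without day 21 replicate 1 at day 21 (0.67, adjusted p = 0.0643). Named after their values were seen, since their motifs were searched above, Foxa1 fell by 1.33 and 1.52 at days 14 and 21, Foxa2 by 0.97 at day 21 and Nkx2-1 by 1.15 at day 21 (edgeR adjusted p = 0.000162, 0.00015, 0.00105 and 0.00302).

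Other secreted defence proteins of the airway were mixed, with 2, 2 and 3 of 13 tested higher and 2, 3 and 5 lower. Lcn2, an iron-scavenging protein, rose by 2.44, 2.16 and 1.21 (log2). Lyz1 fell by 2.65 and 3.09 at days 14 and 21 (-3.97 at day 21 without replicate 1), and Scgb1c1 fell by 1.87, 1.78 and 2.99. Ltf was called higher at day 21 (3.47, edgeR adjusted p = 0.0248), with 717 CPM in replicate 1 and 10.2 and 12.8 CPM in the others. Without replicate 1 the Ltf change was -0.99 ± 0.66 (SE, adjusted p = 0.305), and 1 of the 13 was higher and 6 lower.

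Other epithelial lists set these values beside their neighbours. Multiciliated cell genes, which share the airway with club cells, were lower in 1, 10 and 6 of 12 and higher in 0 (lower in 2 at day 7 without day 7 replicate 4 and in 11 at day 21 without day 21 replicate 1), and of these Tppp3 fell by 0.80, 2.07 and 1.87 (-2.48 at day 21 without replicate 1) and Hydin fell by 1.90 and 1.56 at days 14 and 21. Alveolar type 2 genes were lower in 5 of 8 at day 14 and 8 of 8 at day 21 (6 of 8 at day 21 without day 21 replicate 1). At day 7 edgeR called 0 of these 8, with 1 at an unadjusted p under 0.05, and DESeq2 called 1. Alveolar type 1 genes were mixed (1 higher and 1 lower, 2 and 0, 2 and 2, of 8). In 5 basal cell genes tested, Trp63 and Ngfr were higher at day 7 (1.43 and 1.93) and Trp63 at day 21 (2.01). Trp63, the transcription factor of basal cells, was at 4.63 CPM in day 21 replicate 1 and at 1.54 and 1.41 CPM in the others, and its change was 1.21 ± 0.45 without that library (edgeR adjusted p = 0.0665) and 1.32 ± 0.50 at day 7 without day 7 replicate 4 (adjusted p = 0.0684). Krt15, a basal cell keratin, was not called with all libraries (0.86, adjusted p = 0.564) and was called lower at day 21 without replicate 1 (-4.05, adjusted p = 0.0267), so the 5 genes went from 1 higher and 0 lower to 0 higher and 1 lower. Of these 5 genes edgeR called 0 at day 14, with 0 at an unadjusted p under 0.05 and 0 by DESeq2. Of 4 neuroendocrine genes tested, edgeR called 0 at each day, with 0, 1 and 2 at an unadjusted p under 0.05, and DESeq2 called 0, 0 and 1. Of 5 fat cell genes, 1, 5 and 4 were lower, and of 2 genes of the cartilage list tested, Comp was higher at days 14 and 21 (2.08 and 2.55). The cells that gave the Comp RNA were not tested. Acan, Cnmd, Col2a1 and Matn1 of that list stayed at or below 0.59 CPM in all libraries. Of 6 heart muscle genes tested, only Myh6 was called, lower at day 14. At days 7 and 21 edgeR called 0 of them, with 0 at an unadjusted p under 0.05, and DESeq2 called 0.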

How the data were processed

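Whole-lung RNA was made into libraries by poly(A) selection with a NEBNext Ultra RNA kit and sequenced as paired 150 bp reads. The authors trimmed reads with TrimGalore, aligned them to mm10 (GRCm38) with HISAT2 2.1.0, excluded reads mapping to several places and counted reads per Ensembl gene with HTSeq 0.6.0. The deposited values are raw counts, not normalised. The authors used DESeq2 1.40.2 downstream, and the annotation release and strand setting of the counting are not given in the sources used here. Excluding reads that map to several places can lower the counts of genes with near-identical copies.

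Of 33340 identifiers, 33267 matched GENCODE M21, and 450 genes had no count. Counts were tested with edgeR 4.0.16 (R 4.3.3), with TMM scaling, filterByExpr and all 15 libraries in 1 quasi-likelihood fit; a standard error is the log2 contrast, before any prior count, divided by the square root of its F value. CPM used TMM library sizes, and RPKM divided CPM by union exon length. DESeq2 1.42.0, limma 3.58.1 (voom), other scalings and filters, a replicate block, a mitochondrial covariate and leave-one-out fits were the alternatives. Counts were simulated for day 14 against day 0 over 17457 genes, with a spread taken from the trend over genes and no outlying library. Of 100 genes changed by 1 on the log2 scale 66% were recovered, and of 100 changed by 2, 91%, with 5.99% false among calls. These shares do not carry over to members that spread more widely, such as Scgb3a1, Bpifa1, Bpifb1 and Muc5b. No 2 libraries of the same day agreed within sampling noise (smallest chi-square per degree of freedom 11.96). Marker genes of 12 cell or function lists, and the members, were chosen with earlier results of these data known. From each list up to 4 genes with the largest called change against day 0 were named, and for each member up to 3 genes most alike it in day-centred log2 CPM (prior count 2). Promoters came from RefSeq; Scgb1a1, Muc5b and Muc5ac were not in that table and Scgb3a2 was not used. Python 3.11.15 and scipy 1.17.1 gave exact permutation tests.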

Additional observations from a re-analysis of the deposited data

Results flagged for a closer look

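In 30 groups of 4 libraries (10 genes at days 0, 7 and 14), 6 held a library farther from the rest than Dixon's 95% value allows, where chance gives about 5% of groups, and the 3 libraries of day 21 were too few for that check. Day 7 replicate 4 was high in Scgb3a1 (153.7 CPM), Bpifa1 (330 CPM) and Bpifb1 (189.4 CPM), and day 14 replicate 1 was high in the same 3 genes (15.29, 59.56 and 8.44 CPM). All 6 lay in those libraries and genes, which varied together. The groups are therefore not independent, and the 6 cannot be judged against that 5%. The check used CPM without a log.

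Effects against day 0 that differed between days, by edgeR's test of the later days against each other, were found for Scgb3a2 (day 14 minus day 7, -1.679 on the log2 scale), Cyp2f2 (-1.72 for day 14 minus day 7 and -2.037 for day 21 minus day 7), Scgb1a1 (-1.58 for day 21 minus day 7) and Agr2 (2.809 for day 21 minus day 7). The Scgb3a2 and Agr2 differences lost their calls in 8 of 18 and 7 of 17 alternatives, and those of Scgb1a1 and Cyp2f2 in 0.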

How the results depend on the processing

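Results were counted per gene, comparison and fit, over the called members of the comparisons with day 0 and of later pairs with a call. The call was lost in 34 leave-one-out results and 9 results of other alternatives. Direction and call were kept in the remaining 96 and 169. Scgb1a1, Cyp2f2, Scgb3a2 at day 14 and Agr2 at day 21 lost no call against day 0.

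The count of members called at day 14 was 6, and 3 to 5 with 1 library left out. At day 21 it was 3, and 5 with no filter, 5 by limma voom, 8 without both libraries high in heart muscle genes (chosen after seeing the data) and 3 to 8 with 1 library left out. Between days 14 and 7 it was 2, and 4 with no filter, 4 by DESeq2, 1 with the mitochondrial covariate and 1 to 3 with 1 library left out. Between days 21 and 7 it was 3, and 5 without both libraries and 2 to 7 with 1 left out. Between days 21 and 14 it was 0, and 2 with no filter, 1 by DESeq2 and 0 to 1 with 1 left out. The cause was not tested. Beside the main fit, the share of all genes called is given above for only some fits. These are the fit without day 21 replicate 1 and that of libraries with a high mitochondrial share. For the other fits, a moved count of members cannot be told from a fit that calls more or fewer genes in all. Where leaving out 1 library left a group of 3 with 2, the spread was still pooled over the fit.

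Replicate numbers did not pair the libraries: the correlations of same-numbered deviations ran from -0.244 to 0.397 and no comparison had every pair over 0.1. With the replicate block 3, 6, 4, 2, 3 and 0 members were called in the 6 comparisons, Scgb3a2 at day 21 being the added one. The share of all genes called with the block is not given here, so these counts have no background. Of the marker lists against day 0, the mitochondrial covariate moved the count called by over 1.5 times at day 7 for mucous genes (3 to 1), basal (2 to 1), multiciliated (1 to 0), alveolar type 1 (2 to 1) and fat cell genes (1 to 0), and at day 21 for neuroendocrine genes (0 to 1). Limma voom, run on the lists after seeing the data, moved genes called higher from 3 to 0 (mucous) and 3 to 1 (defence) at day 21 and 2 to 1 (defence) at day 14, and fat cell genes called lower from 4 to 1 at day 21 (5 to 3 at day 14); other moves over 1.5 times by voom or DESeq2 ended at 2 or fewer genes. Without day 7 replicate 4 at day 7 or day 21 replicate 1 at day 21, the alveolar type 1 genes called lower went from 1 to 0 and 2 to 1, and the heart muscle genes at day 21 from 0 to 1 (Actc1).

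Signs turned only in values that were not called with all libraries, and some turned values were called, which were Muc5ac and Bpifb1 at day 21 without replicate 1 or without both libraries high in heart muscle genes. Under the replicate block Scgb3a1 at day 7 was -0.59 and Bpifb1 at day 21 was -1.55. The mitochondrial covariate gave -0.10 for Muc5ac at day 21 and 0.0065 for Spdef at day 7, and limma voom gave -1.96 for Muc5ac and -3.26 for Bpifb1 at day 21. Without both libraries high in heart muscle genes, day 7 gave -1.16 for Scgb3a1 and -0.077 for Scgb3a2, and day 21 gave -2.21 for Scgb3a1, -3.40 for Muc5ac, -2.76 for Bpifa1 and -6.58 for Bpifb1. With 1 library left out, Scgb3a1 ran from -1.16 to 0.74 at day 7 and -2.25 to 3.06 at day 21, Scgb3a2 from -0.079 to 0.15 at day 7, Muc5b from -1.44 to 0.10 at day 7 and -5.16 to 0.15 at day 21, Muc5ac from -3.43 to 0.77 at day 21, Bpifa1 from -3.69 to 0.046 at day 14 and -2.80 to 4.49 at day 21, and Bpifb1 from -6.62 to 1.01 at day 21. Some members had few counts (Agr2 at day 0, Spdef, Muc5ac), and the part of depth in their results was not tested.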
